A study of Mus musculus with 18 samples.

Results

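The urea cycle disposes of the ammonia that is freed when amino acids are broken down, and in mammals the whole cycle runs only in the hepatocytes of the liver, mainly those near the portal vein. N-acetylglutamate switches on the mitochondrial entry step, citrulline leaves the mitochondrion in exchange for ornithine, and the cytosolic steps release urea and return ornithine to the start. The genes of the cycle and of hepatic amino acid breakdown are known to rise with dietary protein, fasting, glucagon and glucocorticoids. The 10 genes described here were chosen by name for their place in this system. Nags, Cps1, Otc, Ass1, Asl, Arg1 and the ornithine carrier Slc25a15 are the cycle itself, and Gls2, Sds and Hal free ammonia from glutamine, serine and histidine. They are 10 of the 21153 genes that the array names, and are read by 12 probes, 2 each for Otc and Ass1 and 1 each for the other 8 genes. Every usable spot of the 12 probes was well above background on all 18 arrays, the exception being the Gls2 spot of LFD mouse 1, which the scanner software marked as an outlier and which was left out.

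The arrays measured liver RNA of 18 C57BL/6 males, 1 array per mouse, fed from 6 weeks of age on a diet with 10% (LFD) or 60% fat (HFD). LFD and HFD are the 4 untreated mice of each diet. LFD-MTX50 and HFD-MTX50 are the 5 mice of each diet that, after 10 weeks of feeding, received 5 rounds of 50 mg/kg methotrexate, an antifolate drug used against cancer, by intraperitoneal injection, and whose livers were taken a week after the last round. The records give no vehicle injection for the untreated mice, so drug and injection cannot be told apart. Each array is a whole liver sample, in which fewer hepatocytes and less RNA per hepatocyte cannot be told apart.

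Levels below are log2 intensities minus the 75th percentile of the array, so that 0 is the intensity of a probe at that percentile and a step of 1 is a change of 2-fold. Between 84.2 and 90.8% of spots on an array were well above background, and arrays correlated with the rest of their group at 0.979 to 0.993 on average. The 18 arrays lie on 6 slides. All LFD arrays share a slide with no other group, so in any comparison with LFD the slide and the group cannot be told apart, and only HFD and HFD-MTX50 share a slide, with 2 arrays each. The hepatocyte markers identified the tissue, with 7 of 7 measured genes of that list, Alb and Apoa1 among them, above background on every array. Their summed level (log2) was 10.09 to 10.32 in LFD, 10.34 to 10.52 in LFD-MTX50, 9.89 to 10.06 in HFD and 9.89 to 10.37 in HFD-MTX50. Thus neither HFD nor LFD-MTX50 overlapped with LFD in these markers.

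On the high fat diet most of these genes lay lower. In HFD against LFD, 9 of the 10 genes had a negative difference, with a median of −0.41 (log2) beside 0.08 over all 19597 genes tested, and 6 of the 10 had every HFD mouse below every LFD mouse. Over all genes tested, 40.3% were separated, 16.2% in that direction and 24% in the other, in which none of the 10 were. The lower levels were not particular to these genes. Of the 7 measured hepatocyte markers 6 had a negative difference and 1 a positive one (median −0.21), and 4 were separated with HFD lower. The median difference of the 10 was −0.21 beside 0.0018 over all genes with quantile normalization, −0.51 beside −0.015 with scaling to the median of the probes above background on every array, and −0.61 beside 0.38 with normexp background correction. One gene, Cps1, passed the test across all probes (limma, adjusted p below 0.05), where 28.3% of all genes passed in either direction and 10.4% fell. The comparison asks how the livers of obese mice differ from those of lean mice when neither received the drug.

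**Figure D1:**
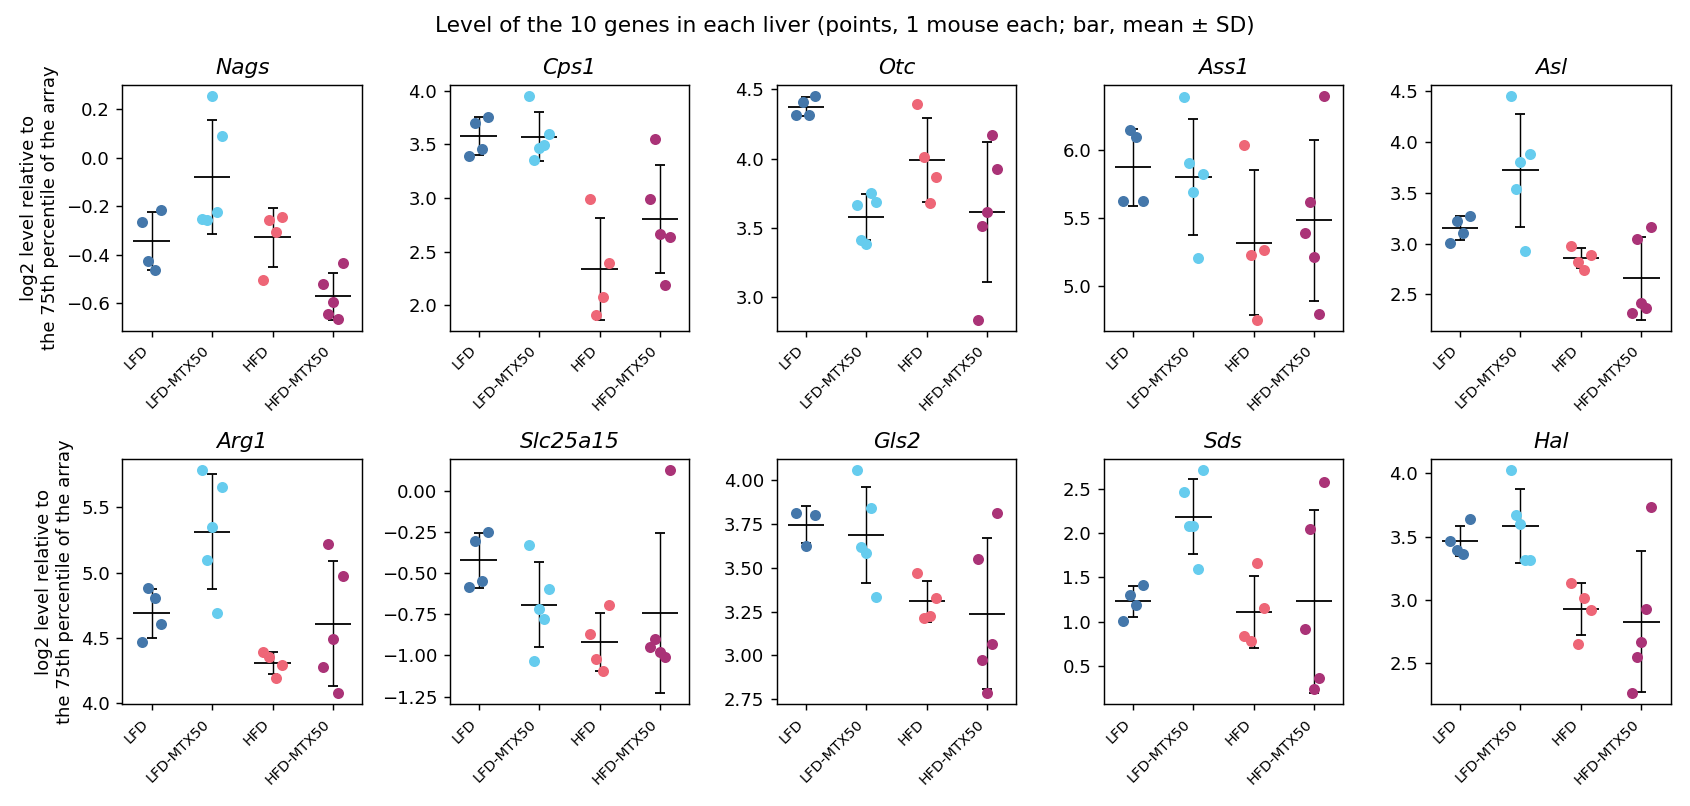
Level of each of the 10 genes (y axis, log2 intensity relative to the 75th percentile of the array, with its own scale per gene) in the livers of the 4 groups (x axis). Each point is 1 mouse and the bars are the mean ± SD; the HFD points of Cps1 lie between 1.91 and 2.99, all below the LFD points, and Slc25a15 in HFD-MTX50 mouse 5 stands alone at 0.13.

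Cps1, which encodes carbamoyl phosphate synthetase 1, the enzyme that fixes ammonia at the entry of the cycle, showed the largest drop of the 10. Its level was 3.39, 3.70, 3.45 and 3.76 in the LFD mice and 2.99, 1.91, 2.07 and 2.40 in the HFD mice. All 4 HFD mice were below all 4 LFD mice, and HFD mouse 1 was the nearest to them. The mean was 2.35-fold lower in HFD (log2 difference −1.24 ± 0.25 SE, limma adjusted p = 0.00498; exact two-sided permutation p = 0.0286, the smallest that 4 against 4 mice can give). The call was kept in all 18 fits without 1 array and in 12 of 13 alternatives, and was lost with normexp background correction (−1.53, adjusted p = 0.144).

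Of the mitochondrial partners of Cps1, Nags, which makes its activator N-acetylglutamate, did not differ with the diet beyond its spread (0.01 ± 0.12, 95% interval −0.24 to 0.27). Otc, which joins carbamoyl phosphate to ornithine, had a difference of −0.38 ± 0.22 on its brighter probe (adjusted p = 0.179). On its second probe the difference had the opposite sign (0.10 ± 0.12, adjusted p = 0.548), and the groups overlapped on both. Slc25a15, which carries ornithine into the mitochondrion, was at −0.58, −0.31, −0.55 and −0.25 in LFD and at −0.87, −1.02, −1.09 and −0.69 in HFD. Its groups did not overlap, but the difference of −0.50 ± 0.21 did not pass (adjusted p = 0.0862).

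None of the cytosolic enzymes passed. Asl, which splits argininosuccinate into arginine and fumarate, lay between 3.00 and 3.27 in LFD and between 2.74 and 2.98 in HFD. Arg1, the arginase that releases urea, lay between 4.47 and 4.88 and between 4.19 and 4.39. Both pairs of ranges are narrow and do not touch, yet the differences, −0.29 ± 0.25 and −0.38 ± 0.24, were far from passing with the spread shared by the 4 groups (adjusted p = 0.382 and 0.231). Ass1, which makes argininosuccinate, had a difference of −0.55 ± 0.31 on its brighter probe and −0.72 ± 0.39 on the other (adjusted p = 0.189 and 0.168), and HFD mouse 1 lay within the LFD range.

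Among the genes that free ammonia, Hal, histidine ammonia lyase, lay between 3.36 and 3.64 in LFD and between 2.65 and 3.13 in HFD (−0.54 ± 0.24, adjusted p = 0.0966). Gls2, the liver-type glutaminase, lay between 3.62 and 3.81 in the 3 LFD mice with a usable spot and between 3.22 and 3.47 in HFD (−0.44 ± 0.21, adjusted p = 0.130). Neither gene overlapped between the diets. Sds, serine dehydratase, overlapped and differed by −0.12 ± 0.41.

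How many of these genes pass depends on the spread used. With limma fitted on LFD and HFD alone, 6 passed (Cps1, Asl, Arg1, Slc25a15, Gls2 and Hal), where 41.7% of all genes passed, and without HFD-MTX50 mouse 5, a mouse that is in neither group but contributes to the shared spread, 3 passed (Cps1, Slc25a15 and Hal), where 32.1% of all genes passed. The adipocyte markers, 4 of 4 above background on every array, moved with the same contrast, their summed level being −1.94 to −1.30 in LFD and 2.02 to 2.71 in HFD, and the periportal hepatocyte markers, 8 of 8 above background on every array, lay at 7.05 to 7.27 in LFD and 6.74 to 7.08 in HFD. The periportal sums overlapped. Erythroid markers summed lower in HFD, at 5.83 to 6.39 against 6.48 to 6.77 in LFD. Pancreas markers (2.12 to 2.34 against 1.90 to 2.01) and T and B cell markers (3.38 to 3.53 against 3.14 to 3.31) summed higher. Within these lists single genes went both ways. By sign, 3 erythroid markers were lower and 1 higher, 3 pancreas markers higher and 2 lower, and 3 T and B cell markers higher and 1 lower. The part of any of these, or of the hepatocyte markers, in the lower levels was not tested.

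**Figure D2:**
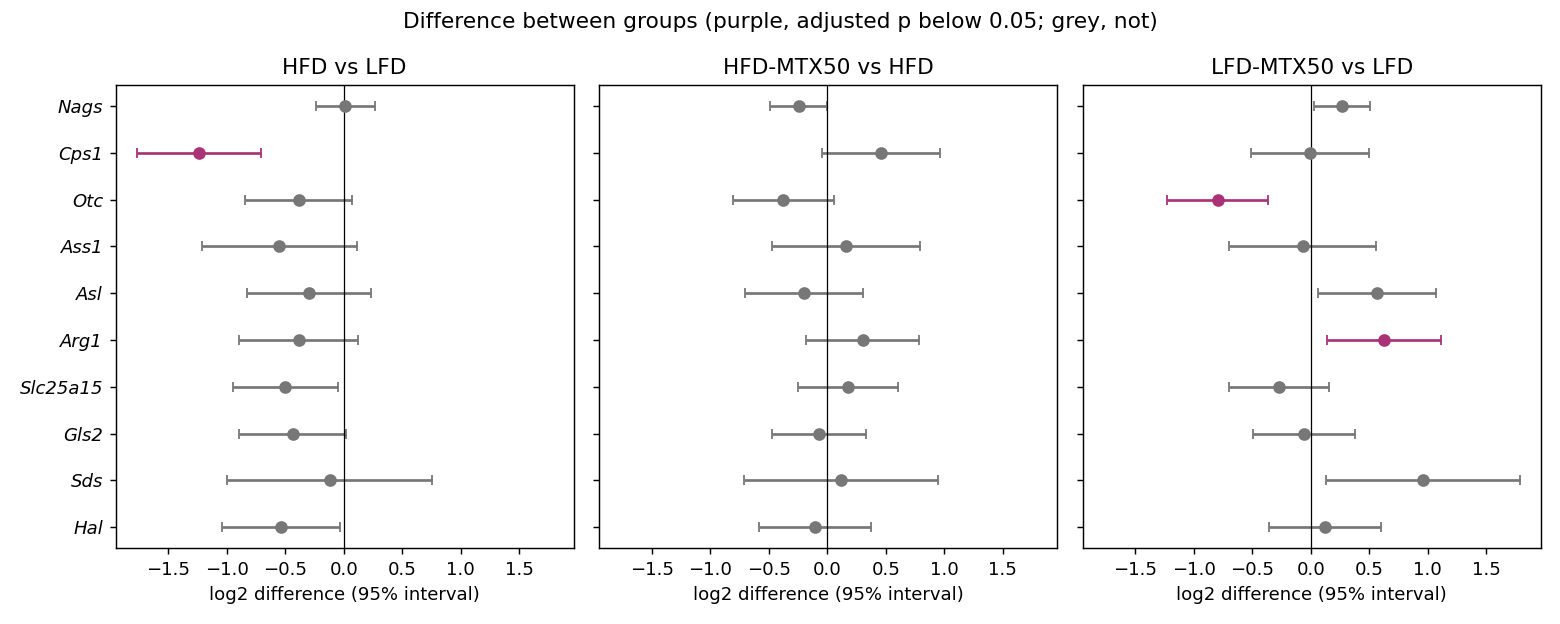
Log2 difference between groups (x axis) of each of the 10 genes (y axis) in 3 comparisons, read on the brighter probe of each gene. Points are limma estimates with 95% intervals, purple where the adjusted p is below 0.05: Cps1 at −1.24 in HFD against LFD, none in HFD-MTX50 against HFD, and Otc at −0.79 and Arg1 at 0.63 in LFD-MTX50 against LFD.

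Methotrexate in the obese mice brought no change in these genes that passed the test on the brighter probe, 0 of 10 where 11% of all genes passed, and no gene separated the HFD-MTX50 mice from the HFD mice, where 11.4% of all genes did, 5.23% higher and 6.21% lower. Fitted on the 2 groups alone, limma called 0 of all 19597 genes, as did the methods' t-test after adjustment, so these fits say nothing of the members. At an unadjusted p below 0.05, limma gave 1 gene. The median difference was 0.02 beside −0.04 over all genes, with 5 genes lower. The comparison addresses whether treated obese mice return toward the level of lean mice.

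For Cps1 the HFD-MTX50 mice were at 2.99, 3.55, 2.67, 2.19 and 2.63. Mouse 2 lay within the LFD range and the other 4 below it, and the group overlapped with HFD. The mean lay 0.46 ± 0.24 above HFD (95% interval −0.04 to 0.97, adjusted p = 0.196). On the slide that carries both groups, with 2 mice of each, the difference was 1.03. For the other 9 genes the differences on that slide ran from −0.60 (Otc) to 0.51 (Arg1).

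The HFD-MTX50 mice were spread more widely than the others. The SD among mice had a median of 0.50 over the 10 genes, against 0.19 in HFD, 0.14 in LFD and 0.29 in LFD-MTX50, and was above that of HFD for 9 of the 10 genes. The SD over all genes was not read beside it. Over the kept probes, the lowest mean correlation of an array with its group was 0.979 in HFD-MTX50, 0.990 in HFD, 0.986 in LFD and 0.982 in LFD-MTX50. HFD-MTX50 mice 1 and 4 had all 10 genes below every LFD mouse, and mouse 3 had 9. Mouse 5 had 6 genes above every LFD mouse and was the highest of its group for 7 of the 10. Sds, which turns serine into pyruvate and ammonia, showed the widest range, at 0.92, 2.04, 0.24, 0.36 and 2.57 in the 5 mice, with mice 2 and 5 above all HFD and LFD mice. Slc25a15 was at −0.95, −0.90, −0.98 and −1.01 in mice 1 to 4 and at 0.13 in mouse 5, the highest value of that gene on any array.

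Mouse 5 also stood apart in blood-cell and hepatocyte markers and in intensity. Its summed level of neutrophil markers (4 measured of 5 listed, 3 above background on every array, S100a8 and S100a9 among them) was 5.57, whereas the other 4 mice of its group lay between −0.80 and 3.55 and the LFD mice between −1.12 and −0.29. Its erythroid markers, 4 measured of 5 listed and all 4 above background on every array, summed to 7.36, above the other 17 arrays. Its hepatocyte markers summed to 10.37, where the other 4 mice of its group lay between 9.89 and 10.16, and the 75th percentile of its array, to which its levels are scaled, was the lowest of the 18, at an intensity of 1203 where the others lay between 1268 and 2263. Without mouse 5 the median difference of the 10 genes from HFD was −0.22 in place of 0.02, and still no gene passed. The part of these markers and of the intensity in the spread was not tested.

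**Figure D3:**
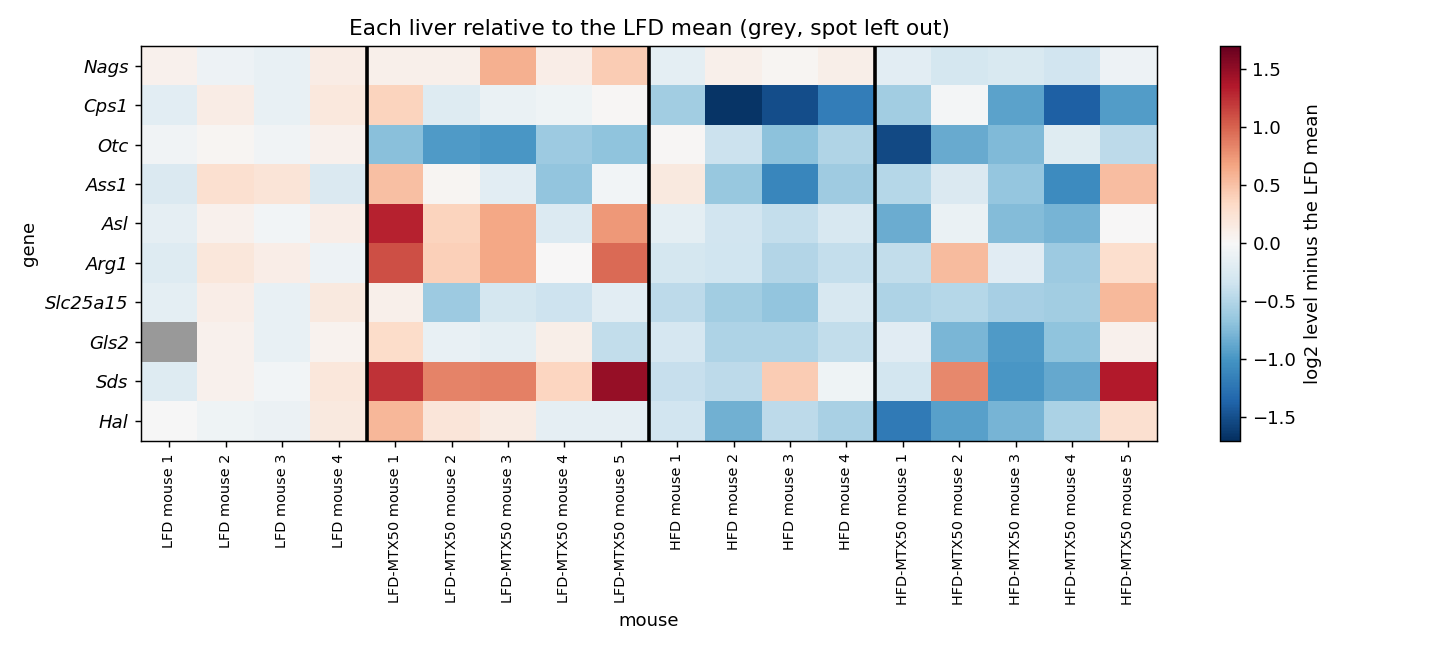
Level of each gene (rows) in each mouse (columns) minus the LFD mean of that gene, on the log2 scale; blue is lower and red is higher than the LFD mean, and grey is the spot of Gls2 in LFD mouse 1 that was left out. HFD-MTX50 mice 1 and 4 are below every LFD mouse in all 10 genes, and mouse 5 of that group is above every LFD mouse in 6.

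Otc was the gene in which the probe mattered. In HFD-MTX50 the brighter probe was at 2.84, 3.51, 3.62, 4.17 and 3.93, against 4.39, 4.01, 3.68 and 3.87 in HFD, and the groups overlapped (−0.37 ± 0.20, adjusted p = 0.219). The second probe was at 0.68, 0.73, 0.78, 1.13 and 0.75 in HFD-MTX50 and at 1.65, 1.43, 1.50 and 1.54 in HFD, with every treated mouse lower, and its difference passed the test (−0.72 ± 0.11, adjusted p = 0.00636). With the mean of the gene's probes, Otc is the 1 gene of the 10 called in this comparison. The hybridized segments of the 2 probes are not described in the files used, so the transcripts they read were not compared.

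In lean mice given methotrexate, Otc was lower on its brighter probe, and Arg1 was higher by a call at the edge of the threshold. In LFD-MTX50 against LFD, 2 of the 10 genes passed, 1 in each direction, where 28.1% of all genes passed, 17.6% higher and 10.5% lower. The brighter Otc probe was at 4.32, 4.41, 4.32 and 4.45 in LFD and at 3.67, 3.41, 3.39, 3.75 and 3.68 in LFD-MTX50. All treated mice were lower, by 1.73-fold on average (−0.79 ± 0.20, adjusted p = 0.0117; exact two-sided permutation p = 0.00794, the smallest that 5 against 4 mice can give). The call held when any 1 of the 18 arrays was left out, and was lost when slide entered as a random block (−0.78, adjusted p = 0.0942), where 1.73% of all genes passed, and with normexp background correction (−1.01, adjusted p = 0.115), where 1.73% did.

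Markers of cell types moved in the same contrast. Of the adipocyte markers 3 of 4 rose, and their summed level was −1.50 to −0.57 in LFD-MTX50 and −1.94 to −1.30 in LFD. Of the periportal hepatocyte markers 3 of 8 fell and 1 rose, with a median difference of −0.56, although the summed level of 6.88 to 7.43 overlapped with LFD. Of the pericentral hepatocyte markers 3 of 10 fell and none rose (median −0.33). Their summed level, 7.75 to 8.17 against 7.86 to 8.12 in LFD, overlapped. Of the erythroid markers 2 of 4 fell and none rose (median −1.42), while 2 had a positive difference that did not pass. Their summed level, 6.11 to 6.77 against 6.48 to 6.77 in LFD, overlapped as well. Over all genes 17.6% rose and 10.5% fell. The neutrophil markers summed to 1.04, 2.55 and 2.64 in LFD-MTX50 mice 1, 2 and 4, above every LFD mouse, and to −1.27 and −1.17 in mice 3 and 5. The part of these markers in the levels of Otc and Arg1 was not tested.

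The second Otc probe moved less in the lean mice, from 1.36, 1.35, 1.47 and 1.55 in LFD to 1.36, 1.09, 1.33, 1.18 and 0.86 in LFD-MTX50 (−0.27 ± 0.11, adjusted p = 0.0805). The difference between the probes, taken within each array, was 2.94 ± 0.09 (SD, n = 4) in LFD and 2.42 ± 0.29 (n = 5) in LFD-MTX50, and these groups did not overlap (exact two-sided permutation p = 0.0159). It was 2.46 ± 0.25 (n = 4) in HFD, again with no overlap with LFD (exact p = 0.0286), and 2.80 ± 0.39 (n = 5) in HFD-MTX50 (exact p = 0.159 against HFD). This comparison of probes was chosen after the values were seen, and over the 6 such tests made for Otc and Ass1 the adjusted p of both separations was 0.0857, so neither passed the correction. The probes of Ass1, by contrast, ran together, with a Pearson r of 0.979 over the 18 arrays against 0.621 for Otc.

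**Figure D4:**
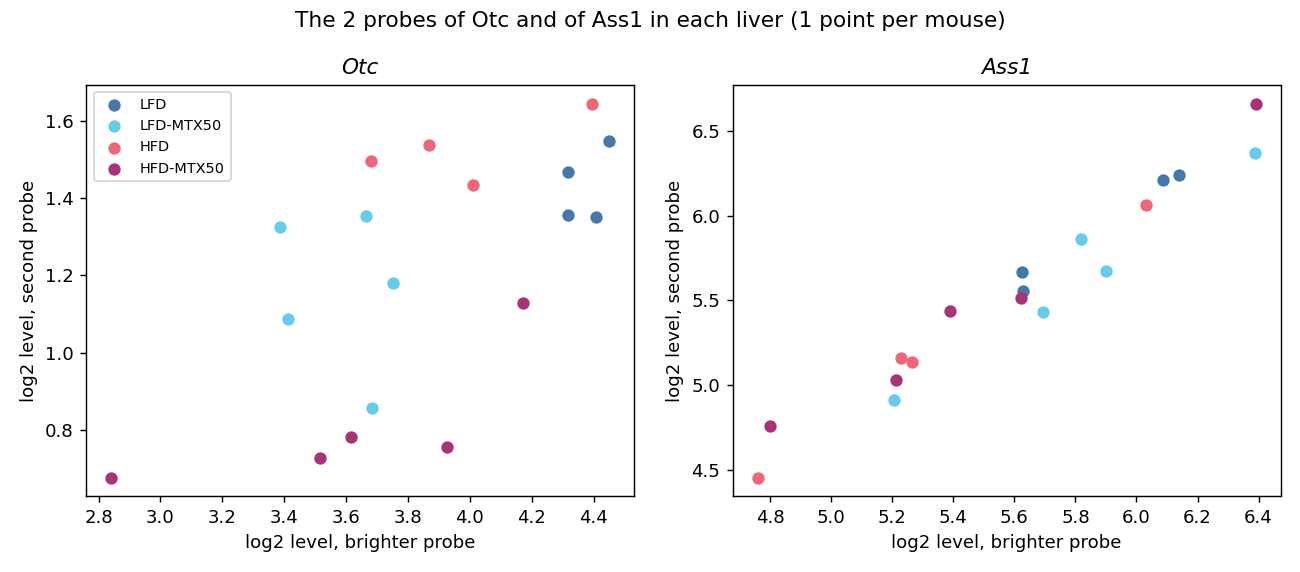
Level on the second probe (y axis) against the brighter probe (x axis), both log2 relative to the 75th percentile of the array, for Otc (left) and Ass1 (right). Each point is 1 mouse, coloured by group; the Ass1 points lie along a line (r 0.979), and for Otc they scatter (r 0.621), the HFD-MTX50 mice lying below the HFD mice on the second probe but overlapping with them on the brighter one.

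Arg1 was at 4.47, 4.88, 4.81 and 4.60 in LFD and at 5.79, 5.09, 5.35, 4.69 and 5.65 in LFD-MTX50. Mouse 4 lay within the LFD range and the other 4 above it. The mean was 1.54-fold higher (0.63 ± 0.23, adjusted p = 0.0496; exact two-sided permutation p = 0.0476). This call stood at the edge of the threshold and was kept in 4 of 13 alternatives and in 5 of 18 fits without 1 array, with adjusted p between 0.0251 and 0.487 over the alternatives. The 5 arrays were LFD-MTX50 mouse 4 and HFD-MTX50 mice 1, 2, 4 and 5, and without any of the other 13 it was lost (adjusted p up to 0.117).

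Sds was at 1.00, 1.30, 1.19 and 1.42 in LFD and at 2.46, 2.07, 2.08, 1.59 and 2.71 in LFD-MTX50. All treated mice were higher, by 1.94-fold on average, but with the spread of all 4 groups the difference did not pass (0.96 ± 0.39, adjusted p = 0.0737; exact two-sided permutation p = 0.0159). Sds passed with limma on the 2 groups alone and when HFD-MTX50 mouse 5 was left out. Separation of the groups was seen for Otc and Sds of the 10 genes, where 29.1% of all genes separated. Asl, at 3.00 to 3.27 in LFD, ranged from 2.92 to 4.45 in LFD-MTX50 (0.57 ± 0.24, adjusted p = 0.0790).

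No other member passed in the lean mice. Cps1, at 3.35 to 3.95 in LFD-MTX50, had the LFD mean to within 0.01 (95% interval −0.51 to 0.50). Ass1 differed by −0.07 ± 0.30, Hal by 0.12 ± 0.23, Gls2 by −0.06 ± 0.21 and Slc25a15 by −0.27 ± 0.20. Nags differed by 0.27 ± 0.11, with a 95% interval of 0.02 to 0.51 (adjusted p = 0.0859). Over the 10 genes the median difference was 0.06 beside 0.10 over all genes.

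Nags passed the test for a difference between the effects of methotrexate on the diets, but not under every scaling. Its levels were −0.27, −0.43, −0.46 and −0.22 in LFD, −0.25, −0.26, 0.25, −0.22 and 0.09 in LFD-MTX50, −0.50, −0.26, −0.31 and −0.25 in HFD, and −0.52, −0.65, −0.60, −0.67 and −0.43 in HFD-MTX50. Mice 3 and 5 of LFD-MTX50 were the highest of all 18, and 4 of the 5 HFD-MTX50 mice the lowest. The effect on HFD minus that on LFD was −0.51 ± 0.16 (log2, limma adjusted p = 0.0290), where 26.8% of all genes passed this test and 18.1% did so in the negative and 8.66% in the positive direction. Neither effect passed by itself, at −0.24 ± 0.11 on HFD and 0.27 ± 0.11 on LFD, and the call was kept in 7 of 11 alternatives and 12 of 18 fits without 1 array. It was lost without LFD mouse 2 or 3, HFD mouse 2, 3 or 4, or HFD-MTX50 mouse 4, with adjusted p up to 0.0641. With slide entered as a random block it was lost too (−0.55, adjusted p = 0.0950), where 6.37% of all genes passed. The same held with quantile normalization (−0.48, adjusted p = 0.0502) and scaling to the median (−0.37, adjusted p = 0.0816). With normexp background correction the difference was −0.33 and 0 of all genes passed. The second Otc probe passed narrowly as well (−0.45 ± 0.16, adjusted p = 0.0482), whereas the brighter probe had the opposite sign (0.42 ± 0.29). Asl (−0.77 ± 0.34, adjusted p = 0.0950) and Sds (−0.84 ± 0.55, adjusted p = 0.264) had the widest negative differences and did not pass.

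Set in order of their means, the groups began with LFD for Cps1, Otc, Ass1, Slc25a15 and Gls2, and with LFD-MTX50 for Nags, Asl, Arg1, Sds and Hal. HFD was last for Cps1, Ass1, Arg1, Slc25a15 and Sds. Neighbours in this order overlapped in all cases but 2, the LFD mice all lying above the HFD mice next in order for Asl and for Hal.

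Within groups the genes tended to vary together. After the group means were removed, 38 of the 45 pairs of genes correlated positively over the 18 arrays (median r 0.33, range −0.25 to 0.90), and the closest pair was Asl and Arg1 (r 0.90). These are descriptions, pairs of other genes were not read beside them, and all genes on an array share its scaling. Outside the 10 genes, the closest pattern over the 18 arrays was that of Urad, which acts in urate breakdown, for both Arg1 (Pearson r 0.94) and Asl (0.89). For Otc it was the peroxisomal import receptor Pex5 (0.93), for Hal Hnrnpu (0.90), for Slc25a15 the growth factor receptor Egfr (0.89), for Gls2 Endog (0.88, over 17 arrays), for Ass1 Wscd1 (0.87), for Sds Pwwp3a (0.87) and for Nags 1700017G19Rik (0.86). For Cps1 the 5 closest were Gm10653, Sdc2, Rpl30, Slco2a1 and Zfp281, with r between 0.88 and 0.91.

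The wider pathway was read through 113 genes in 12 lists of amino acid breakdown, nitrogen transport and their regulators, none of them among the 10. In HFD against LFD 4 rose and 9 fell, in HFD-MTX50 against HFD 4 rose and 10 fell, and in LFD-MTX50 against LFD 9 rose and 20 fell. The medians were −0.10, −0.12 and −0.14, beside 0.08, −0.04 and 0.10 over all genes. Shares of all genes that rose and fell were 18% and 10.4%, 4.83% and 6.13%, and 17.6% and 10.5%. The split depended on the scaling. In HFD against LFD, 63.4% of the calls over all genes were higher, but 45.6% with quantile normalization and 45.5% with scaling to the median of the probes above background on every array, and the pathway genes then split into 7 higher and 4 lower and into 2 and 16. In LFD-MTX50 against LFD the share fell from 62.7% to 44.8% and 44.4%, with 8 pathway genes higher and 16 lower and with 7 and 26. In HFD-MTX50 against HFD, where the share was 44%, 46.7% and 53.2%, 3 rose and 21 fell and 5 rose and 7 fell.

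**Figure D5:**
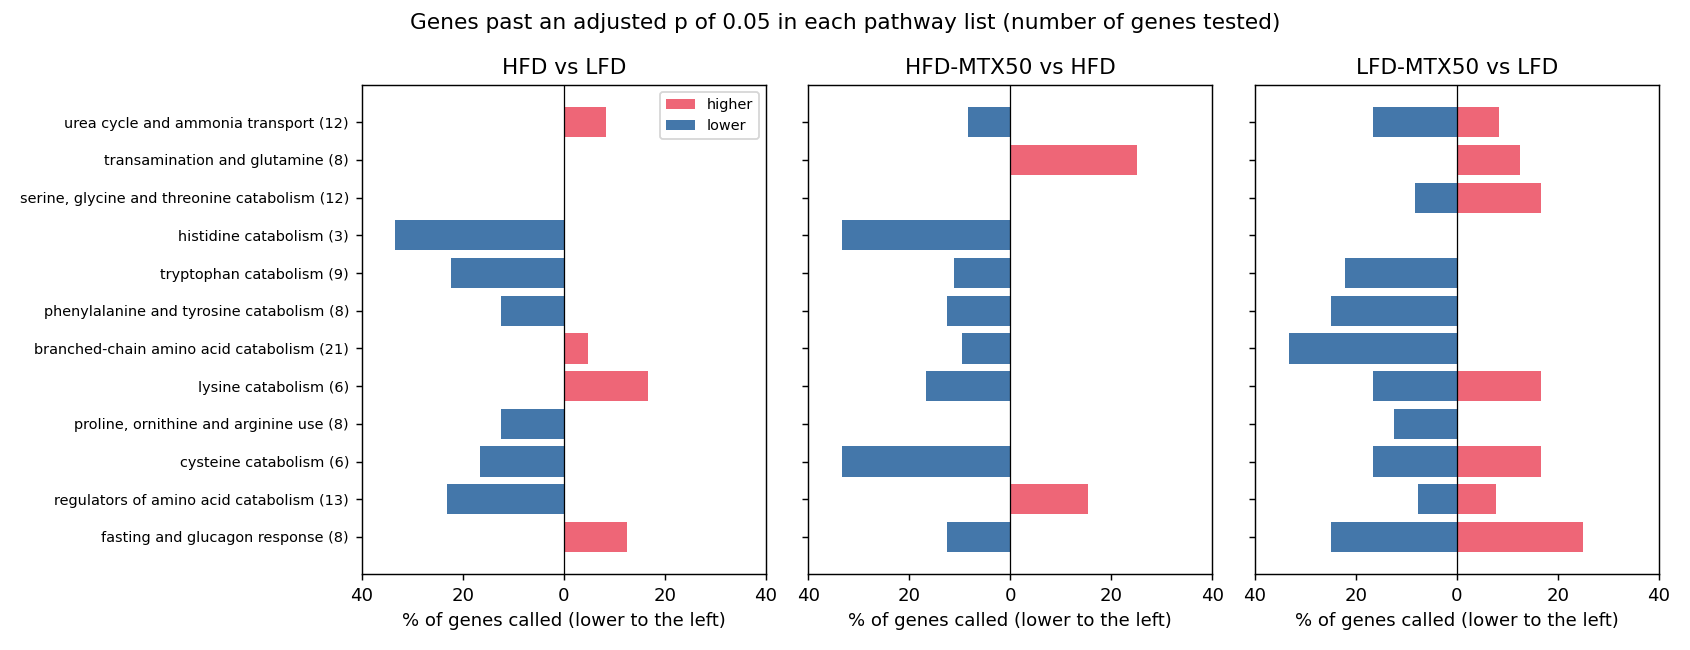
Share of the genes of each pathway list (rows, number of genes tested in brackets) with an adjusted p below 0.05 (x axis, percent), higher to the right and lower to the left, in 3 comparisons. Branched-chain amino acid catabolism has 7 of 21 genes lower in LFD-MTX50, where 10.5% of all genes are lower. Several lists hold under 10 genes, where 1 gene is a large share.

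In the list of urea cycle and ammonia transport (12 genes), Rhbg, an ammonium transporter, fell with methotrexate on both diets, by 1.11 ± 0.29 (log2) in HFD-MTX50 (adjusted p = 0.0268) and by 0.85 ± 0.29 in LFD-MTX50 (adjusted p = 0.0372). Car5a, the mitochondrial carbonic anhydrase that supplies bicarbonate to Cps1, fell by 0.62 ± 0.18 in LFD-MTX50. Arg2, the mitochondrial arginase, passed as higher in HFD and in LFD-MTX50 but was not well above background on any LFD array, and only on 2 of 4 HFD and 3 of 5 LFD-MTX50 arrays. The limma adjusted p of 0.00781 in HFD and 0.00460 in LFD-MTX50 belong to the measured means, −6.39 and −6.30 against −8.44 in LFD. With each LFD array raised to its lowest level well above background, the mean was 1.12-fold higher in HFD and 1.20-fold higher in LFD-MTX50. These folds include HFD and LFD-MTX50 arrays that were themselves not above background, and were not tested. In the list of transamination and glutamine (8 genes), Asns, which makes asparagine, rose by 1.27 ± 0.28 in HFD-MTX50, and Asrgl1, an asparaginase, rose by 0.73 ± 0.17 in LFD-MTX50.

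Branched-chain amino acid catabolism, the longest list, had 7 of 21 genes lower and none higher in the treated lean mice. Over all genes 10.5% were lower and 17.6% higher in that comparison. With slide as a random block, which was not read for these genes, 1.73% of all genes passed. Hibch and Hibadh, of the valine route, fell by 0.70 ± 0.15 and 0.50 ± 0.12, and Pcca and Mmut, which carry propionyl-CoA into the citric acid cycle, by 0.51 ± 0.11 and 0.42 ± 0.12. In HFD-MTX50 against HFD 2 of the 21 fell, Pcca by 0.78 ± 0.11 and Hsd17b10 by 0.60 ± 0.11, and in HFD against LFD 1 rose, Hsd17b10 by 0.48 ± 0.12. Over all genes 6.13% fell and 4.83% rose in HFD-MTX50 against HFD, and 10.4% fell and 18% rose in HFD against LFD. Histidine catabolism beyond Hal (3 genes) had 1 lower in HFD, Amdhd1 (−0.58 ± 0.20), and 1 lower in HFD-MTX50, Uroc1 (−0.33 ± 0.09). For Uroc1 the effects on the diets also differed (−0.51 ± 0.13, adjusted p = 0.0135).

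In the lists of aromatic amino acid breakdown few genes passed, and those that did were lower, beside 10.4%, 6.13% and 10.5% of all genes lower in the 3 comparisons. Of 9 genes of tryptophan catabolism, Afmid (−0.69 ± 0.20) and Acmsd (−0.94 ± 0.29) fell in HFD, Kmo fell in HFD-MTX50 (−0.40 ± 0.12), and Kmo (−0.54 ± 0.12) and Ido2 (−0.69 ± 0.25) fell in LFD-MTX50. Of 8 genes of phenylalanine and tyrosine catabolism, Pcbd1, which recycles the cofactor of phenylalanine hydroxylase, fell in HFD (−0.33 ± 0.11) and in LFD-MTX50 (−0.57 ± 0.11), Qdpr, which also recycles it, in LFD-MTX50 (−0.80 ± 0.23), and Hgd, of tyrosine breakdown, in HFD-MTX50 (−0.74 ± 0.17).

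The other lists of breakdown routes were mixed. Of 12 genes of serine, glycine and threonine catabolism none passed in HFD or HFD-MTX50, and in LFD-MTX50 Tdh (0.54 ± 0.14) and Agxt (0.49 ± 0.15) rose and Srr fell (−0.52 ± 0.17). Of 6 genes of cysteine catabolism, Cdo1, which opens the route to taurine, fell in HFD (−0.45 ± 0.14) and rose in LFD-MTX50 (0.57 ± 0.13), and Ethe1, which oxidizes sulfide, fell with treatment on both diets (−0.67 ± 0.21 in HFD-MTX50 and −0.80 ± 0.21 in LFD-MTX50). Suox, sulfite oxidase, fell in HFD-MTX50 (−0.45 ± 0.13). Of 6 lysine genes, Gcdh rose in HFD (0.38 ± 0.12) and fell in HFD-MTX50 (−0.52 ± 0.12), and in LFD-MTX50 Aldh7a1 fell (−0.53 ± 0.15) and Dhtkd1 rose (0.72 ± 0.23). Of 8 genes of proline, ornithine and arginine use, Gatm, the first enzyme of creatine synthesis, fell in HFD (−0.93 ± 0.32) and Aldh4a1 fell in LFD-MTX50 (−0.66 ± 0.18).

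Among 13 regulators of amino acid breakdown, 3 fell in HFD, the coactivator Ppargc1a (−1.20 ± 0.25), the hepatocyte factor Hnf4a (−0.55 ± 0.16) and Atf4 (−0.46 ± 0.13), and none rose. Over all genes 10.4% fell and 18% rose. With slide as a random block, which was not read for these regulators, 1.94% of all genes passed. Ppargc1a lay between −0.98 and −0.67 in LFD and between −2.28 and −1.81 in HFD, and Hnf4a between 5.56 and 5.87 and between 4.93 and 5.44. In HFD-MTX50 2 of the 13 rose, Ppargc1a (0.76 ± 0.24) and Hnf4a (0.51 ± 0.15), where 4.83% of all genes rose. As these comparisons share the HFD mice, a fall in the one and a rise in the other are not independent. In LFD-MTX50 Cebpb, a factor of the acute phase and fasting responses, rose (1.04 ± 0.31) and Creb3l3 fell (−0.56 ± 0.18). In the list of the fasting and glucagon response (8 genes), Pck1, the entry enzyme of glucose synthesis, rose in LFD-MTX50 (1.31 ± 0.28), as did Igfbp1 (2.77 ± 0.82), whereas G6pc, its last enzyme, fell (−1.21 ± 0.34), as did Pdk4 (−1.28 ± 0.44). G6pc fell in HFD-MTX50 too (−1.14 ± 0.34), and Cpt1a rose in HFD (0.60 ± 0.20).

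Since Hnf4a and Cebpb changed, 250 bases before a RefSeq start of the genes were searched on both strands for a C/EBP-like motif (TTGCNNAA), an HNF4-like motif (CAAAGTCC) and the cAMP response element (TGACGTCA), with no overlap among matches. RefSeq windows of assembly GRCm38.p6 were at hand for 5 of the genes, Nags, Otc, Ass1, Slc25a15 (2 starts) and Hal. The Otc window precedes a later start of that gene and so reaches into the gene as annotated from its first start, at 10252230. Only Hal held a match, to the C/EBP-like motif, from 150 to 143 bases before its start. That motif is in 9.56% of the 32851 windows of the same length, the HNF4-like in 1.20% and the cAMP element in 1.55%. The windows of Hal and, as the genes with a called difference, of Otc and Nags are shown 5′ to 3′ on the + strand, with the match in capitals. The search was chosen after the values were seen, and a match is a description of the letters, not of binding.
Hal, chr10:93488518-93488767: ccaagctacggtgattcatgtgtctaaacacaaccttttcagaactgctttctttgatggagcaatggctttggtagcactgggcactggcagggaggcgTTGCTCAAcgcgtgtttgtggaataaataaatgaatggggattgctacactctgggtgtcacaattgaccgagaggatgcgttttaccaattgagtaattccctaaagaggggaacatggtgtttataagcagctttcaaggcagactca
Otc, chrX:10252055-10252304: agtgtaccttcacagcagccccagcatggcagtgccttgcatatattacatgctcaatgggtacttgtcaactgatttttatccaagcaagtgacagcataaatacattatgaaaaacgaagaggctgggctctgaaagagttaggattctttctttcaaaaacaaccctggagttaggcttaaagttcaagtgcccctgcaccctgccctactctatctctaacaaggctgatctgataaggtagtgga
Nags, chr11:102145263-102145512: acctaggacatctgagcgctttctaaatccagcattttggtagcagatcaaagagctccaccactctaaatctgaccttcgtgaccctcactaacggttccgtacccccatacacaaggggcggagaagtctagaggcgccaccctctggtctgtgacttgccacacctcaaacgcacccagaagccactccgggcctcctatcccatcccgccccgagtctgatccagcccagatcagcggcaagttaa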

How the data were processed

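Liver RNA of 18 mice was labelled with cy3 and hybridized to 1-colour Agilent arrays. Per the file headers, the authors read them with Agilent Feature Extraction 10.7.3.1, which subtracted background and detrended each array, and deposited processed intensities on a linear scale that are not scaled between arrays. The series value table the authors deposited holds intensities of the same scans and served as an alternative, with values under 1 set to 1.

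From each log2 intensity the 75th percentile of its array was subtracted. Outlier spots (124 to 294 per array) were left out, repeat spots were averaged per probe, and 35735 of 39429 probes, well above background on at least 4 arrays, were kept. No spot was saturated (0). RefSeq accessions named 28025 probes and 19597 genes with a kept probe, each gene being read on its brightest probe. The array was laid out on another assembly, so the only coordinates given are the promoter windows and the first Otc start, on GRCm38.p6. limma 3.58.1 in R 4.3.3 was fitted jointly to the 4 groups, its p-values were adjusted by Benjamini-Hochberg across every kept probe, and it was tested on simulated data. Values with ± are SE unless SD is named. Exact permutation tests are two-sided. Nothing in the records pairs mice between groups, and the number of arrays limits precision.

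The members and lists were chosen with earlier results of these data known. Named were all members, at most 4 genes per list and comparison by smallest adjusted p, and the closest pattern to each member (5 for Cps1). Marker levels are log2 of summed linear levels; the symbols Tf and Ly6g matched no probe. Alternatives covered background, scaling, filters, variance, test, threshold, slide, replicate number, probe choice and left-out arrays. Student's t-test, which the study used for other measurements, is called the methods' t-test. Normexp (offset 50) used the median spot signal because the files hold no mean signal. Scaling alternatives for the pathway lists were chosen after seeing the data.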

Additional observations from a re-analysis of the deposited data

Results flagged for a closer look

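Slc25a15 in HFD-MTX50 mouse 5 lay at 0.13 (log2 level), far above the other 4 mice of its group, which were between −1.01 and −0.90. Of 39 groups of values tested this way 1 stood out, and chance alone gives about 1 in 20. For Nags the effect of methotrexate on HFD minus that on LFD was −0.51 ± 0.16 (log2, limma adjusted p = 0.0290), the test being that of the difference itself.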

How the results depend on the processing

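Over 17 alternatives and 18 fits without 1 array, 1133 of 1236 values of single genes kept their sign and their side of the threshold, 35 lost a call, 21 gained one and 47 changed sign, and none of the values that changed sign had been called. The cause was not tested for any of these. Normexp correction shifted the median of all genes to 0.38, 0.39 and 0.47 in HFD against LFD, HFD-MTX50 against HFD and LFD-MTX50 against LFD, and left 0 members called in HFD against LFD, 0 in LFD-MTX50 against LFD and 0 for the difference between the effects, where it called 2, 339 and 0 of all 19597 genes.

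In LFD-MTX50 against LFD the number of members called was 3 with quantile normalization (Otc, Asl and Arg1, where 18.8% of all genes passed), 1 (Otc) with scaling to the median, the series value table, outlier spots kept, no filter on dim probes or the replicate block, and 0 when slide was a random block (correlation 0.26, 1.73% of all genes passing) or with a 2-fold threshold at an adjusted p below 0.05 or an unadjusted p up to 0.015 (4.75% of all genes in both). In HFD against LFD it was 6 with only the 2 groups compared and with the methods' t-test (41.7% and 35.7% of all genes). In HFD-MTX50 against HFD it was 1 with the mean of a gene's probes (10.1% of all genes). For the difference between the effects it was 0 with scaling to the median, the slide as a random block or either 2-fold threshold, where 25%, 6.37%, 7.94% and 8.05% of all genes passed, and quantile normalization called Asl in place of Nags (adjusted p = 0.0502). Without 1 array the number ran from 1 to 3 in HFD against LFD, 0 to 0 in HFD-MTX50 against HFD, 1 to 3 in LFD-MTX50 against LFD and 0 to 2 for the difference. The 3 in LFD-MTX50 came without LFD-MTX50 mouse 4 (Asl added) or HFD-MTX50 mouse 5 (Sds added), and the 2 for the difference without LFD-MTX50 mouse 4 (Asl added) or HFD-MTX50 mouse 1 (Otc added).

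Values that changed sign were, with quantile normalization, Nags in HFD against LFD (−0.017), Ass1 in HFD-MTX50 against HFD (−0.12), Cps1 (0.10) and Gls2 (0.058) in LFD-MTX50 against LFD and the difference for Ass1 (−0.068). With normexp they were Ass1 in HFD-MTX50 (−0.00052), Hal in LFD-MTX50 (−0.19) and the difference for Gls2 (0.21). With scaling to the median they were Nags in HFD (−0.081) and the difference for Gls2 (0.13), and with the series value table Nags in HFD (−0.028), Cps1 in LFD-MTX50 (0.015) and the difference for Gls2 (0.10). The replicate block turned Sds in HFD-MTX50 (−0.11), Cps1 in LFD-MTX50 (0.014) and the difference for Gls2 (0.088). The slide as a fixed block and the shared slide alone turned Slc25a15 in HFD-MTX50 (−0.030 in both), the slide as a random block the difference for Gls2 (0.052), and the mean of a gene's probes the difference for Otc (−0.014). Without 1 array the values that changed sign ran from −0.065 to 0.40 for Ass1, −0.22 to 0.37 for Sds, −0.22 to 0.042 for Gls2, −0.33 to 0.040 for Hal and −0.040 to 0.25 for Slc25a15 in HFD-MTX50, from −0.21 to 0.081 for Ass1, −0.098 to 0.057 for Cps1 and −0.15 to 0.029 for Gls2 in LFD-MTX50, from −0.026 to 0.073 for Nags in HFD, and from −0.16 to 0.10 for the difference of Gls2.

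Mice with the same number in different groups did not deviate together (25 pairs, r −0.31 to 0.25, median −0.021), so the numbers were not taken as pairs. For 4 of 18 arrays, the mean r with arrays of other groups was highest at the array's own number. With the replicate block limma called 1 member in HFD against LFD, 0 in HFD-MTX50 against HFD, 1 in LFD-MTX50 against LFD (Arg1 at adjusted p = 0.0690) and 1 for the difference.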
